A study of Mus musculus with 6 samples.

Results

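Elastases, chymotrypsins and carboxypeptidases are the non-trypsin proteases that the acinar cells of the pancreas make as inactive zymogens. Members were picked by gene symbol, by a rule that uses no measured value, though earlier results of these data were known when the group was chosen: Cela1, Cela2a and Cela3b (elastases), Ctrb1, Ctrc and Ctrl (chymotrypsins), and Cpa1 and Cpb1 (carboxypeptidases). Of these 8 genes, 7 are described here, out of 14681 genes in the deposited table. Ctrc, which RefSeq annotates on GRCm38 as a transcribed pseudogene, has no row in the deposited table and is therefore not analysed here.

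RNA was sequenced from the dorsal pancreas of 3 knockout and 3 control mouse embryos at embryonic day 18.5, all labelled C57BL/6. The knockout embryos are those labelled Dpy30∆P, and Dpy30 is a core subunit of the Trithorax group complexes that methylate lysine 4 of histone H3. The name of the deposited table, however, speaks of a Pdx1 knockout and not of Dpy30, and the table itself holds no genotype. That its values compare the samples labelled Dpy30∆P with the controls therefore rests on its being the table of this series. The labels give neither the genotype of the controls nor the promoter that drives the deletion, and the single-cell experiment named in the design text is not analysed here. The table holds the authors' test results with 1 mean normalized count per gene over all libraries and no value per library, so the spread between libraries is seen only through the error of the fold change, and the depth of each library is unknown.

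Pancreatic acinar cells store digestive proenzymes in zymogen granules and release them into the gut, where trypsin cuts them into active form. Chymotrypsins and elastases are serine proteases that cut within proteins, chymotrypsins after large hydrophobic residues and the elastases mostly after smaller ones. Carboxypeptidases are zinc enzymes that trim single residues from the carboxyl end, A-type enzymes hydrophobic residues and B-type enzymes basic ones. Their genes are among the most strongly transcribed in the acinar cell and are classical targets of the PTF1 complex, which is built on the factor Ptf1a.

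Neither the table nor the labels state the numerator of the fold changes. Knockout over control is assumed, so each sign given here would flip if the ratio had been taken the other way. The size of a difference between genes would stay the same, while every group mean, share and order of levels would swap between knockout and control. Dpy30 itself, with a mean normalized count of 29.4, did not settle the direction: its log2 fold change was 0.49 ± 1.64 (SE), with a 95% interval from -2.73 to 3.71. The fold changes were deposited in a shrunken form, pulled toward 0 by an amount that depends on the error of the gene. Unshrunken values and their SE were therefore reconstructed from them, and these are the values given unless a deposited one is named. A gene is called when the authors' deposited table gives it an adjusted p under 0.05. Per the labels, the samples came from 3 embryos per group, and it is the spread between them that the p-values measure. The RNA was depleted of ribosomal RNA before sequencing.

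Both carboxypeptidases and the elastases Cela2a and Cela3b fell in the knockout, by 3.85-fold to 6.11-fold. The chymotrypsins Ctrb1 and Ctrl had log2 fold changes of -1.37 and -1.84 but were not called, and the elastase Cela1 lay on the other side of 0, at 0.56. In all, 4 of the 7 genes were called lower and 0 higher in the authors' deposited table. Among all 12108 genes with an adjusted p, 0.479% were called lower and 0.264% higher. Among the 408 genes with a mean count above 1000, where all of the members but Ctrl belong, 5.64% were called lower and 0.98% higher. For all 7 genes the authors' deposited table gives an unadjusted p under 0.05, 6 with a negative sign and 1, Cela1, with a positive sign; over all genes, 2.7% reached this on the negative side and 2.7% on the positive side. The median log2 fold change of the 7 genes was -1.94, against 0.04 over all genes with an adjusted p and a value that could be reconstructed. In bulk tissue, fewer acinar cells and less RNA per acinar cell cannot be told apart.

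**Figure D1:**
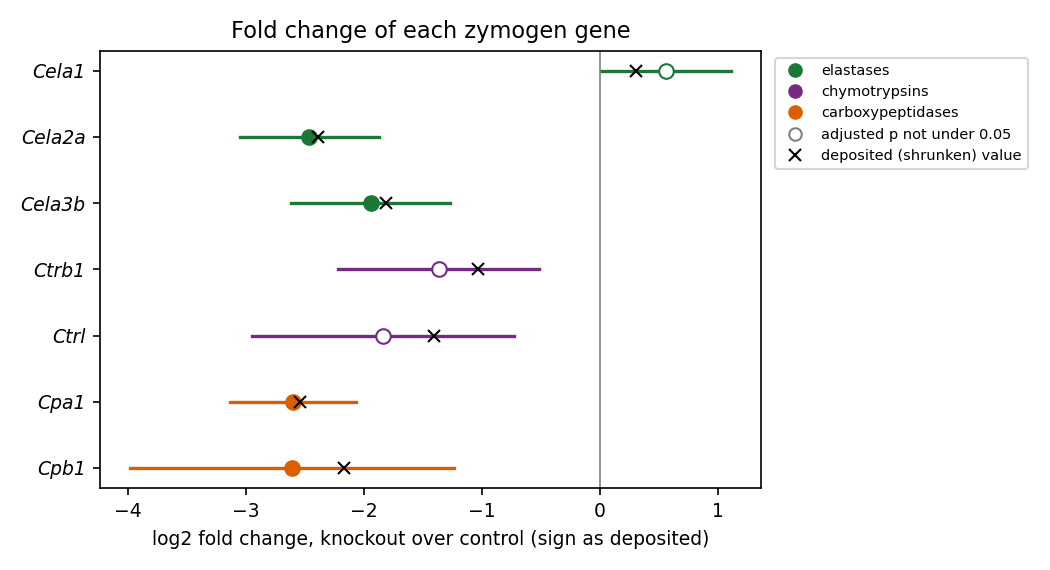
Log2 fold change (x axis, knockout over control, sign as deposited) of each gene (rows). Circles are reconstructed values with 95% intervals, filled where the adjusted p is under 0.05, and crosses are the deposited shrunken values; 6 genes lie between -1.37 and -2.61, and Cela1 lies at 0.56.

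Elastases were split. Cela2a (Entrez gene 13706; chromosome 4, 141814954 to 141826005, GRCm38) encodes chymotrypsin-like elastase 2A and had a mean normalized count of 24974. From this mean and the fold change, the implied group means were 7671 in the knockout and 42277 in the control. The log2 fold change was -2.46 ± 0.30 (SE; the authors' deposited table lists 3.16e-13 as its adjusted p), a fall of 5.51-fold with a 95% interval from 3.67-fold to 8.27-fold.

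Cela3b (Entrez gene 67868; chromosome 4, 137421008 to 137430520, GRCm38), elastase 3B, had implied means of 2502 in the knockout and 9630 in the control. It was 3.85-fold lower in the knockout, at -1.94 ± 0.34 (SE; the authors' deposited table lists 9.25e-06 as its adjusted p). Cela1 (Entrez gene 109901; chromosome 15, 100674422 to 100687920, GRCm38), elastase 1, went the other way, with implied means of 20216 in the knockout and 13752 in the control. Its log2 fold change was 0.56 ± 0.28 (SE), and the authors' deposited table lists a p of 0.0483 before and 0.770 after adjustment, so Cela1 was not called. The 95% interval of Cela1 ran from 0.00 to 1.11, so a fall of the size seen in Cela2a or Cela3b lies outside it.

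The elastase pool therefore had a different make-up in the 2 groups. Per kilobase of transcript, Cela1 made up 64.9% of the implied elastase signal in the knockout and 19.9% in the control. Cela2a made up 25.5% in the knockout and 63.4% in the control, and Cela3b 9.61% in the knockout and 16.7% in the control. With the ratio the other way, each pair of shares would swap groups. These shares have no error of their own; the intervals of the differences between genes, given further on, carry it. Among the 7 genes, implied levels per kilobase in the knockout placed only Ctrb1 above Cela1, while in the control Cela2a and Cpa1 were above it as well, again under the assumed numerator.

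Some elastase reads may be split between neighbouring copies. Of the 31-base words in the Cela3b transcript, 45.2% also occur in Cela3a, whose gene lies 11.2 kb away, and 26.9% of those of Cela2a occur in Ctrc, 12.2 kb away. The transcripts of Cela1, Ctrb1, Ctrl and Cpa1 share 0 such words with other genes in the GENCODE M21 set. Cela3a, the copy next to Cela3b, averaged only 16.6 normalized counts, and no unshrunken value could be determined for it. The authors' deposited table lists its shrunken value as -0.02 ± 0.22 (SD of the estimate), with an adjusted p of 0.406. The sources used here do not say how the counting divided such reads.

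The 250 bases before the annotated start are printed for the member that stood apart, Cela1, and for the most lowered elastase, Cela2a, the lowered carboxypeptidase with the smallest error, Cpa1, and the most abundant member, Ctrb1. The sequences are RefSeq's on GRCm38.p6, 5′ to 3′ on the strand of the gene. The regions are chr15:100687921-100688170 (minus strand) for Cela1, chr4:141826006-141826255 (minus strand) for Cela2a, chr6:30638968-30639217 (plus strand) for Cpa1 and chr8:111691011-111691260 (minus strand) for Ctrb1. Capitals mark matches on either strand to the motifs described next.
Cela1: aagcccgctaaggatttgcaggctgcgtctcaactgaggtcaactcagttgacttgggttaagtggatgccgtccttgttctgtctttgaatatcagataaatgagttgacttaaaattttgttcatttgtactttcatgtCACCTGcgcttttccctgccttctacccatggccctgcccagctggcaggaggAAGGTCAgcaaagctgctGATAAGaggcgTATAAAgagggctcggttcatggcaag
Cela2a: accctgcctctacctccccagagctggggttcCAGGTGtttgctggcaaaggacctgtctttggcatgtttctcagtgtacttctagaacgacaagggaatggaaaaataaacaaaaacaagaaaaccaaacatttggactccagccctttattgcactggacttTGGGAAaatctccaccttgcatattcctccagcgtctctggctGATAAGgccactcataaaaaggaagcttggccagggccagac
Cpa1: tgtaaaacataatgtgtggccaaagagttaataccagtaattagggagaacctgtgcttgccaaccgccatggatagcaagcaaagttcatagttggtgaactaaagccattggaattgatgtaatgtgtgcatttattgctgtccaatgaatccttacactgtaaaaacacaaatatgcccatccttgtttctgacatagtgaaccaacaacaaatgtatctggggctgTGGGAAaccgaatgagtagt
Ctrb1: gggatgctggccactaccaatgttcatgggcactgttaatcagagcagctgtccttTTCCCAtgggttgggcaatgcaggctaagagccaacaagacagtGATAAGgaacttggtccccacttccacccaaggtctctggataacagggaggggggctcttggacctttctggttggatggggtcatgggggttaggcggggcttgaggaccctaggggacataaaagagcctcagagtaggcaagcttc

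Motifs were searched as plain letters in these 250 bases of all 7 genes and of 32851 promoters, and none of the matches marked overlap each other. CACCTG, an E-box of the kind bound by basic helix-loop-helix factors such as Ptf1a, occurred in 5 of the 7 genes (Cela1, Cela2a, Cela3b, Ctrl and Cpb1) and in 17.2% of all promoters. TGGGAA, the core read by RBPJ and its pancreatic relative Rbpjl, the partners of Ptf1a, occurred in 4 of 7 (Cela2a, Ctrb1, Ctrl and Cpa1) and in 21.6% of all promoters. GATAAG, a motif read by Gata4 and Gata6, occurred in 4 of 7 (Cela1, Cela2a, Cela3b and Ctrb1) and in 6.55% of all. AAGGTCA, the core of sites for nuclear receptors such as Nr5a2, and TATAAA, which can place the start of transcription, occurred only in Cela1 among the 7, at 56 and 27 bases before the start, and in 4.08% and 12.4% of all promoters. A match is a description of letters and not a site of binding, and the annotated starts were taken as given. Only exact letters were searched, so variants of a motif were not counted. In Cela1, ttccct lies shortly after CACCTG and differs only in its last letter from TTCCCA, which is TGGGAA on the other strand. Whether RBPJ or Rbpjl reads it was not tested.

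Chymotrypsins held the most abundant gene of the whole table. Ctrb1 (Entrez gene 66473; chromosome 8, 111686510 to 111691010, GRCm38), chymotrypsinogen B1, had a mean normalized count of 161670, the highest of the 14681 genes, and made up 4.41% of all mean counts. Its implied means were 90244 in the knockout and 233097 in the control. The log2 fold change was -1.37 ± 0.44 (SE), with a 95% interval from -2.22 to -0.52, but the authors' deposited table lists a p of 0.00155 that became 0.134 on adjustment, so Ctrb1 was not called.

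Ctrl (Entrez gene 109660; chromosome 8, 105931994 to 105933862, GRCm38) encodes a chymotrypsin-like protease and was by far the least abundant of the 7 genes, with a mean normalized count of 944. Its implied means were 412 in the knockout and 1476 in the control. The log2 fold change of -1.84 ± 0.57 (SE) was not called, since the authors' deposited table lists an adjusted p of 0.0980. At a threshold of 0.1, where 0.619% of all genes were called lower, Ctrl would be called. Per kilobase, Ctrb1 made up over 99% of the implied chymotrypsin signal in both groups, at 99.5% in the knockout and 99.4% in the control.

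Both carboxypeptidases fell, with nearly the same estimate but unequal error. Cpa1 (Entrez gene 109697; chromosome 6, 30639218 to 30645361, GRCm38), carboxypeptidase A1, had implied means of 4358 in the knockout and 26423 in the control. It was 6.06-fold lower in the knockout, at -2.60 ± 0.27 (SE; the authors' deposited table lists 4.58e-18 as its adjusted p), and ranked second by p among all genes. Cpb1 (Entrez gene 76703; chromosome 3, 20249479 to 20275733, GRCm38), carboxypeptidase B1, had implied means of 4227 in the knockout and 25811 in the control. Its log2 fold change was -2.61 ± 0.70 (SE; the authors' deposited table lists 0.0266 as its adjusted p), 6.11-fold lower with a 95% interval from 2.36-fold to 15.8-fold. Set against the weighted mean of pan-epithelial genes, the value of Cpb1 became -2.02 and was not called (adjusted p = 0.121). Per kilobase, Cpa1 made up 63.9% of the signal of the pair in the knockout and 63.7% in the control.

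**Figure D2:**
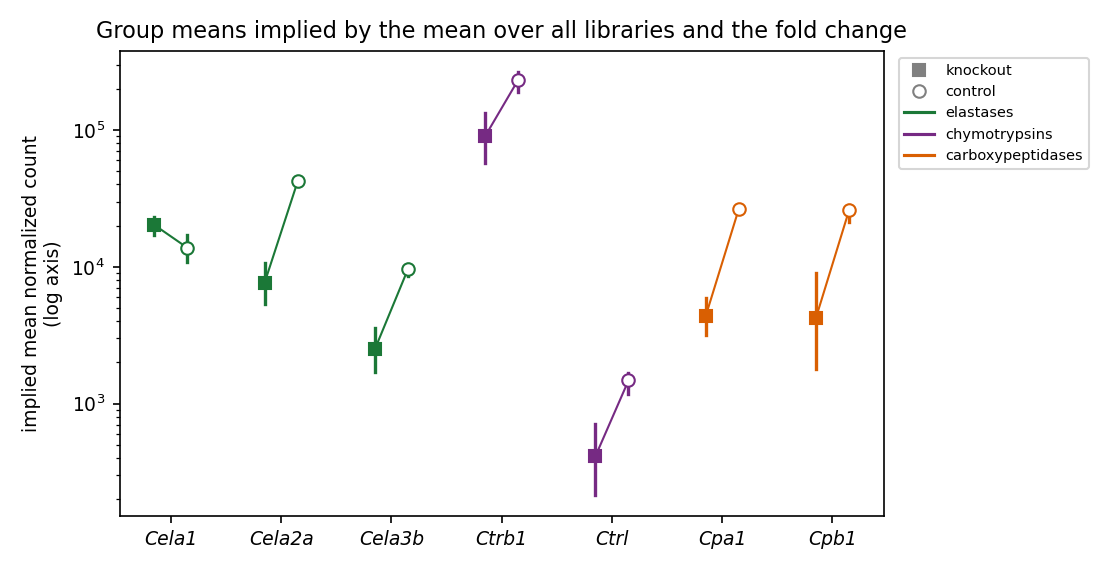
Mean normalized count (y axis, log scale) of each gene in the knockout (filled squares, left) and control (open circles, right), as implied by the mean over all libraries and the reconstructed fold change; vertical bars show the means implied at the 95% limits of the fold change. The knockout is below the control for 6 genes, and above it for Cela1, at 20216 in the knockout and 13752 in the control.

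The 7 genes were compared in all 21 pairs. Since they were measured in the same libraries and their covariance is not known, each difference was given the widest interval that any correlation allows, from the sum of both SEs. With 95% intervals, 6 pairs left out 0, and these were the 6 pairs that contain Cela1. In the other 15 pairs the interval included 0. Cela1 minus Cela2a was 3.02 (1.88 to 4.15), Cela1 minus Cela3b was 2.50 (1.27 to 3.73), and Cela1 minus Ctrb1, the smallest of the 6, was 1.92 (0.52 to 3.33). At the level that holds over all 21 pairs, Cela1 differed from 4 genes (Cela2a, Cela3b, Cpa1 and Cpb1), and the intervals against Ctrb1 (-0.25 to 4.10) and Ctrl (-0.18 to 4.97) included 0. Within the elastases the largest difference was 3.02 (Cela1 minus Cela2a), and between families it was 3.17 (Cela1 minus Cpb1).

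Among the 6 genes below 0, no difference could be shown, but the intervals are wide. Cpa1 minus Cpb1 was 0.01, with a widest 95% interval from -1.89 to 1.91. Ctrb1 minus Ctrl was 0.47 (-1.49 to 2.43), and Cela2a minus Cela3b was -0.52 (-1.78 to 0.74). Between families, Ctrb1 minus Cpa1 was 1.23 (-0.16 to 2.62). If the genes varied independently, it and Cela2a minus Ctrb1 (-1.09) would also leave out 0. The family medians were -2.61 for carboxypeptidases, -1.94 for elastases and -1.61 for chymotrypsins, but with 2 or 3 genes each these are descriptions.

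**Figure D3:**
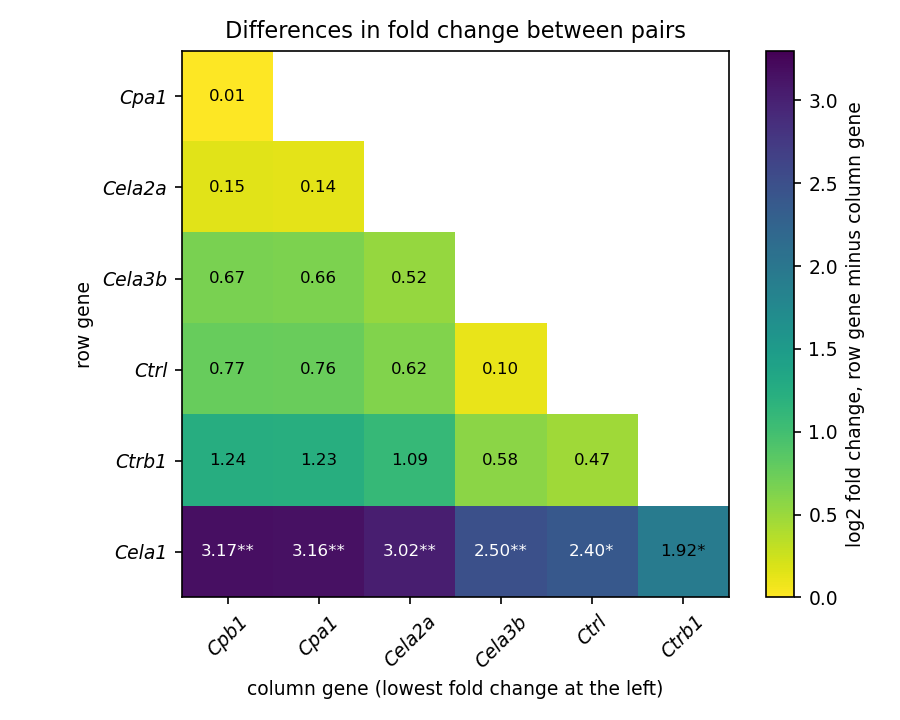
Difference in reconstructed log2 fold change (colour and numbers, row gene minus column gene, log2 units) for each of the 21 pairs, ordered by fold change. A star marks a widest 95% interval that leaves out 0 and a pair of stars one that does so at the level for all pairs; the 6 starred cells are those with Cela1, with values from 1.92 to 3.17.

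Error did not follow abundance among these genes. Counting alone would give an SE between 0.003 and 0.046 on the log2 scale, far below the SE of each gene. The errors are therefore set by the spread between libraries as modelled in the authors' test. Under a negative binomial model, the SE implies a coefficient of variation between libraries of the same group. It was 23.0% for Cpa1, 23.9% for Cela1, 25.3% for Cela2a and 29.2% for Cela3b. It was wider for Ctrb1 (37.0%), Ctrl (47.9%) and Cpb1 (59.4%). These are values of the model and not a spread measured between the libraries. Among the 407 genes with a mean count above 1000 and a reconstructed value, the SE of Cpb1 exceeded that of 98.0%, and the SE of Ctrb1 that of 92.4%. Cpa1 and Cpb1, with nearly the same mean count and the same fold change, therefore differ by many orders of magnitude in p. Without values per library, it was not tested whether 1 library sets the spread of Cpb1, Ctrb1 or Ctrl.

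**Figure D4:**
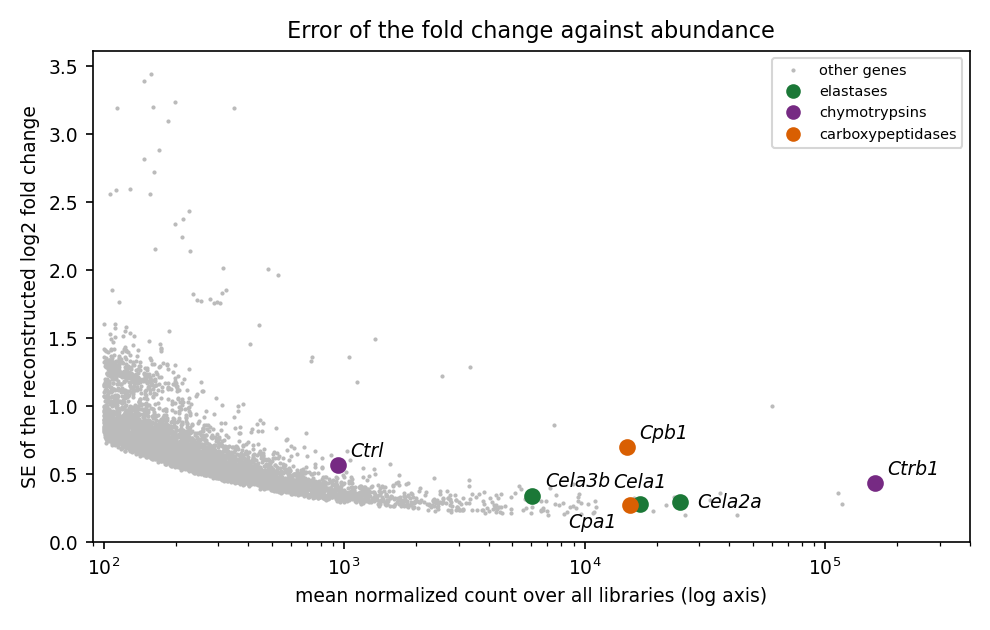
SE of the reconstructed log2 fold change (y axis) against mean normalized count over all libraries (x axis, log scale) for the 7 genes (coloured by family) and 5707 other genes with a mean count of at least 100 (grey). Cpb1 at 0.70 and Ctrb1 at 0.44 lie above most genes with a mean count over 1000, while Cpa1 lies at 0.27.

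In level, the 7 genes together held 6.58% of all mean counts. Per kilobase of transcript, Ctrb1 came first with a mean over all libraries of 184135 normalized counts per kb, followed by Cela2a (23340), Cela1 (15329), Cpa1 (9722), Cela3b (6551), Cpb1 (5526) and Ctrl (1074). No error can be put on these means, so whether neighbours in this order differ beyond their spread was not tested. Summed over the 7 genes, the implied counts were 129631 in the knockout and 352467 in the control, 2.72-fold lower in the knockout. The sum was 6.08-fold lower for the carboxypeptidases, 2.59-fold for the chymotrypsins and 2.16-fold for the elastases, whose sum includes Cela1.

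Other acinar enzyme genes gave the setting. Their counts are to be read beside the 0.479% of all genes called lower, or 5.64% of those with a mean count above 1000. Of 6 trypsinogen genes, whose products activate the zymogens described here, 3 were called lower and 0 higher, with a median log2 fold change of -1.08. The called genes were Prss2, Try5 and Prss1. Prss2 was at -2.32 ± 0.30 and Try5 at -1.30 ± 0.31 (SE), with adjusted p-values of 3.73e-11 and 0.00760 listed by the authors' deposited table. Try4, chosen after its values were seen, was the trypsinogen above 0, at 1.20 ± 0.36 (SE), with an adjusted p of 0.0854 listed by the authors' deposited table. Cela1 minus Try4 was -0.64, with a widest 95% interval from -1.89 to 0.61. Trypsinogen and amylase genes are known as multigene families. How many reads their copies share was not measured here, so values of single copies are to be read as uncertain.

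Of 10 lipase, amylase and nuclease genes with an adjusted p, 7 were called lower and 0 higher, against 0.479% and 0.264% of all genes. Their median was -1.96 over the 10 with a reconstructed value. Clps (colipase) was at -3.19 ± 0.27 and Pnliprp1 (a lipase-related protein) at -2.51 ± 0.28 (SE; the authors' deposited table lists 1.13e-28 and 3.06e-15 as their adjusted p). Among 8 genes of zymogen activation and inhibition with an adjusted p, 1 was called lower. That was Spink1, the trypsin inhibitor packed with the zymogens, at -2.02 ± 0.55 (SE; the authors' deposited table lists 0.0312 as its adjusted p). Serpini2, a pancreatic serpin, was at -1.60 ± 0.47 and was not called (adjusted p = 0.0751 by the authors' deposited table).

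Of 13 zymogen granule genes with an adjusted p, 1 was called lower and 0 higher, and 13 of the 14 in the table had a negative sign, against 45.2% of all genes with a p. The called gene was Sycn (syncollin, a granule membrane protein), at -2.08 ± 0.50 (SE; the authors' deposited table lists 0.00779 as its adjusted p), while Aqp12, an acinar aquaporin, was at -1.58 ± 0.58 (adjusted p = 0.310 by the authors' deposited table). Of 15 folding and secretory genes of the endoplasmic reticulum, 2 were called lower and 0 higher, and 14 had a negative sign. The called genes were Pdia2, a pancreatic protein disulfide isomerase, at -2.08 ± 0.31 and Fkbp11, a foldase, at -1.85 ± 0.45 (SE; the authors' deposited table lists 1.42e-08 and 0.00779 as their adjusted p). Over all genes with an adjusted p, 0.479% were called lower and 0.264% higher.

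Of 13 acinar transcription factor genes, 0 were called by the authors' DESeq2 test and 0 reached an unadjusted p of 0.05, with a median log2 fold change of 0.04. Over all genes 0.743% were called in either direction, so a count of 0 of 13 does not set this list apart. Foxa3 at -1.59 ± 0.84 and Gata6 at 0.80 ± 0.49 (SE) had the smallest p of this list. Ptf1a, named for its known role and not by its p, had a log2 fold change of 0.34 ± 0.93 (SE). Relative to the weighted mean of these factors, the same 4 zymogen genes were called lower.

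**Figure D5:**
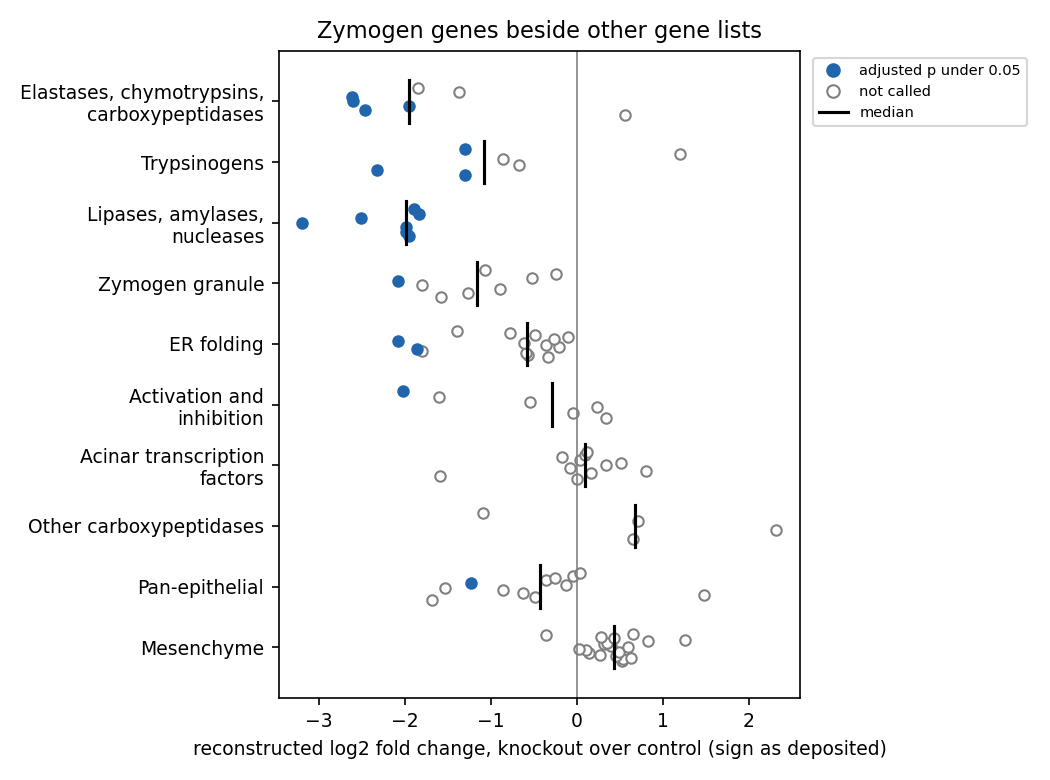
Reconstructed log2 fold change (x axis, sign as deposited) of the genes with an SE of at most 1 in each gene list (rows), filled where the adjusted p is under 0.05, with the median as a black line. Digestive enzyme lists lie left of 0 except for Cela1 at 0.56 and Try4 at 1.20, while acinar transcription factors centre near 0.

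Markers of other cell types were read beside the zymogen genes, and their part in the result was not tested. Islet genes and 1 pan-epithelial gene were called lower, and the other lists given here had 0 called members or, for erythroid genes, 1 called higher. Of all genes with an adjusted p, 0.743% were called, so a list with 0 called is not set apart from the rest. An unadjusted p below 0.05 was found for 2.7% of all genes with a p in each direction, and 45.2% had a negative sign. Of 16 pan-epithelial genes with an adjusted p, 1 was called lower (Krt18, an epithelial keratin, at -1.23 ± 0.28 (SE), with 0.00315 as its adjusted p by the authors' deposited table), and 14 of the 17 in the table had a negative sign; Ap1m2, an epithelial adaptor subunit, was at -1.69 ± 0.80. Their weighted mean was -0.59 and their median -0.43, over the 12 with an SE of at most 1. Krt18, with the smallest SE of the list, weighs most in this mean. Over all genes, scaling on the weighted mean gave 43 called lower and 150 higher, against 58 lower and 32 higher with no shift. Taken relative to that mean, Cela2a, Cela3b and Cpa1 were still called lower, and Cela1 was called higher, at 1.14 (adjusted p = 0.00739). This adjusted p leaves out the error of the mean. Of 12 islet genes with an adjusted p, 4 were called lower (Ins2, Chga, Chgb and Gcg), with Ins2 (insulin 2) at -3.56 ± 0.42 and Chga (chromogranin A) at -2.74 ± 0.55 (SE; the authors' deposited table lists 2.95e-14 and 0.000274 as their adjusted p). Of 20 mesenchyme genes, 18 had a positive sign, 0 were called by the authors' DESeq2 test and 6 had a positive sign with an unadjusted p below 0.05, with Col3a1 (collagen III) at 0.63 ± 0.20 and Vim (vimentin) at 0.65 ± 0.23. Of 12 ductal, 12 endothelial and 12 liver genes, 0 were called by the authors' DESeq2 test. An unadjusted p below 0.05 was found for 2 ductal genes, Pkhd1 (-1.66 ± 0.67, SE) and Bicc1 (no value reconstructed), both with a negative sign, and for 0 endothelial genes. It was also found for 5 liver genes (Apoa1, Fgg, Apob, Ttr and Afp), all with a positive sign, of which Apoa1 was at 2.20 ± 0.80. Of 5 mast cell, 14 H3K4 methyltransferase complex and 2 intestine or stomach genes, 0 were called by the same test and 0 had an unadjusted p below 0.05. Of 5 erythroid genes, Gata1 was called higher, at a mean normalized count of 29.4 (the authors' deposited table lists 0.0235 as its adjusted p). The deposited shrunken value of Gata1 was only 0.04 ± 0.23 (SD of the estimate), and no unshrunken value could be used for it.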

How the data were processed

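RNA from 3 knockout and 3 control dorsal pancreas samples was sequenced, grouped here by sample title. Trimmomatic, Salmon and DESeq2, and the build GRCm38 (mm10), are named per the submitters' processing notes; the sources used here give neither versions nor settings. The authors deposited 1 table: a mean normalized count over all libraries (a signal), a log2 fold change with its error in log2 units, and a p-value with its adjusted p-value. No test was run on counts; under other scalings, deposited z values were shifted and their p-values adjusted anew over the 12108 genes with an adjusted p (11402 shifted, the rest kept). Without values per library, no count test, replicate block or left-out replicate could be run, and error in a single library cannot be seen.

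Unshrunken fold changes were reconstructed assuming a Cauchy prior of 1 scale (0.3103 in log2 units, chosen so that most genes returned their deposited p) and a quadratic likelihood. The z of the result lay within 0.1 of that of the deposited p for 88.6% of genes with a p, and within 0.040 for the 7 genes; values outside 0.1 were not used. List means weight genes with an SE of at most 1 by inverse variance. The step was tested on data simulated under the same prior, scale and likelihood. That tests the calculation and not whether the authors' shrinkage had this form. Implied group means assume equal groups of 3 and no covariate. Implied variation assumes a negative binomial model. Pairs were planned over 8 genes; without Ctrc 21 were possible. Transcript lengths came from GENCODE M21, coordinates and promoters from RefSeq on GRCm38.p6 (7 of 7 genes matched). Python 3.11.15, numpy 2.4.6, scipy 1.17.1 and pandas 2.3.3 were used.

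Genes named are the members, their pancreatic paralogs, Dpy30 and the 2 genes with the smallest p of each list where values are given; Try4, Ptf1a, Cpa3 and genes named to resolve a small count were added after values were seen. A gene that this rule covers is not reported here. Members and lists were chosen with earlier results of these data known.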

Additional observations from a re-analysis of the deposited data

How the results depend on the processing

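Direction held for all 7 genes under 3 scalings, but none of these could have turned a sign. They added 0.04, 0.59 and -0.10 to every log2 fold change, while Cela1 was at 0.56 and the other genes at -1.37 or below. The 2 other prior scales and the deposited values also keep the sign by construction. Thresholds of 0.01 and 0.1 change only the calls. So does Benjamini-Hochberg adjustment over every gene with a p or over genes with a mean count of at least 100. The number called lower was 3 to 5, against 4. Cpb1 (-2.61, adjusted p = 0.0266) was not called at 0.01, and Ctrl (-1.84, adjusted p = 0.0980) was called at 0.1, where the list of activation and inhibition genes had 2 called lower, against 1. Scaling on pan-epithelial genes adds 0.59 to every log2 fold change, with the error of that shift not carried into the adjusted p-values. There Cpb1 was -2.02 and not called (adjusted p = 0.121), Cela1 was 1.14 and called higher, and the family medians were -1.36 (elastases), -1.02 (chymotrypsins) and -2.02 (carboxypeptidases). Over all genes that scaling gave 43 called lower and 150 higher, against 58 and 32; scaling on acinar transcription factors gave 66 and 31. Pairs that left out 0 numbered 6 under both other prior scales, 8 if genes are independent and 4 at the level for all pairs. No paired analysis was possible because the table holds no value per library, and for the same reason no replicate could be left out. Counting depth does not limit the 7 genes, while the modelled spread between libraries does.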

Other observations

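Genes next to the zymogen genes were measured as well. Within 100 kb of the 7 genes, 31 other genes that are not digestive enzymes had an adjusted p. Of these, 0 were called in the authors' deposited table (DESeq2), where 0.743% of all genes were called. An unadjusted p below 0.05, found for 2.7% of all genes in each direction, was found for 5: Cdc42, Ranbp10 and Cep41 with a negative sign, and Edc4 and Mest with a positive sign. Cdc42, 63249 bases from Cela3b, was at -1.20 ± 0.36 (SE). Their median log2 fold change was 0.37 over 29 with a reconstructed value.

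Carboxypeptidases not counted among the pancreatic zymogens were another kind of comparison. Which cells their RNA came from was not tested. Of 10 such genes with an adjusted p, 0 were called by the authors' DESeq2 test, against 0.743% of all genes. A count of 0 of 10 therefore does not set this list apart, and only 4 of the genes had an SE of at most 1. An unadjusted p under 0.05 was found for 1, against 2.7% of all genes in each direction. Of the 11 in the table, 8 had a positive sign, while 45.2% of all genes with a p had a negative one. Agtpbp1, which trims glutamates from tubulin, was at 2.32 ± 0.77 (SE; the authors' deposited table lists 0.168 as its adjusted p). Cpd, a carboxypeptidase of the Golgi, was at -1.09 ± 0.61. The mast cell enzyme Cpa3 was at 0.71 ± 0.71, with a mean normalized count of 189.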
